A study of Mus musculus with 2 samples.

Results

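AP-1 and the immediate early genes were described in an ATAC-seq (assay for transposase-accessible chromatin with sequencing) experiment on mouse liver, in which Tn5 transposase cuts open chromatin and reads pile up over accessible regions. The 10 genes are *Jun*, *Junb*, *Jund*, *Fos*, *Fosb*, *Fosl2*, *Atf3*, *Egr1*, *Ier2* and *Myc*, and their regions were those that the deposited table places closest to the start site (TSS) of one of them. This gave 42 of 69549 distinct regions, of which 14 had their centre within 1 kb of the TSS (promoter regions, of 14387 in all) and 28 lay farther away (of 55162). Each gene had 2 to 6 regions and at least 1 promoter region.

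The study compared *Mettl3* flox/flox livers with *Mettl3*-HKO livers (*Mettl3* flox/flox Alb-Cre+/-) and asked whether loss of METTL3, the RNA m6A methyltransferase, alters open chromatin. Every mouse was on the C57BL/6 background, 8 weeks old and fed normal chow, and both groups carried the floxed alleles, while the *Mettl3*-HKO mice alone carried Cre, driven by the albumin promoter, which is active in hepatocytes. Each genotype was 1 library made from the pooled livers of 4 mice, so no replicate error could be computed and no p-value is given. The 95% intervals below are exact intervals of the read counts and cover counting error only. Whole liver was used, so other cell types of the organ contributed nuclei, and fewer cells of a type and less accessibility per cell cannot be told apart.

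AP-1 is a dimer of a JUN protein with a FOS, ATF or second JUN protein that binds short TGA-containing DNA motifs. Its genes, together with *Egr1*, *Ier2* and *Myc*, are immediate early genes: growth factors, cytokines and stress switch them on within minutes through preformed factors such as SRF with its ternary complex partners, CREB and the MAP kinases, without new protein synthesis. In the liver they are best known for the burst of transcription that follows partial hepatectomy and opens regeneration, and for their response to injury and inflammation.

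RefSeq promoter sequences (GRCm38.p6) were matched to 7 of the 10 genes by symbol. None was found for the other 3, *Egr1*, *Ier2* and *Myc*. Those of *Jun*, *Junb*, *Fos* and *Atf3*, 250 bases up to the RefSeq TSS, are shown. Each lay wholly within the accessible promoter region of its gene without reaching into the RefSeq gene. Each also held letters that match a motif of AP-1 or CREB family proteins. Capitals mark the *Jun* elements TGACATCA and TTACCTCA and the CRE core TGACG, on either strand.
*Jun*, chr4:95052223-95052472, minus strand: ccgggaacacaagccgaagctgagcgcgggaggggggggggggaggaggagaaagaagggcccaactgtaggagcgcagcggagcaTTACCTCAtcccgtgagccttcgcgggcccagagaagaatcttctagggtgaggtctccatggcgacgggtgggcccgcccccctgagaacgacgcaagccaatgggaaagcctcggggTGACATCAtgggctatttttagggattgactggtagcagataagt
*Junb*, chr8:84978749-84978998, minus strand: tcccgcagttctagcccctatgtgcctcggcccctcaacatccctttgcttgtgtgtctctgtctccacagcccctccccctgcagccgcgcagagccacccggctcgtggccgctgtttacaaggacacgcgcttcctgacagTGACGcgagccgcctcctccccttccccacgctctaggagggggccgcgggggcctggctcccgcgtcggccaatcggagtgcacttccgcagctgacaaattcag
*Fos*, chr12:85473640-85473889, plus strand: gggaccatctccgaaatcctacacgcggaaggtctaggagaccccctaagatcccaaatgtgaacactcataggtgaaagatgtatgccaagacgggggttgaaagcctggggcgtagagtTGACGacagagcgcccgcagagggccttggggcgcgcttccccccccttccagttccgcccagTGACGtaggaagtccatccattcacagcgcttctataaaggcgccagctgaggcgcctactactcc
*Atf3*, chr1:191183334-191183583, minus strand: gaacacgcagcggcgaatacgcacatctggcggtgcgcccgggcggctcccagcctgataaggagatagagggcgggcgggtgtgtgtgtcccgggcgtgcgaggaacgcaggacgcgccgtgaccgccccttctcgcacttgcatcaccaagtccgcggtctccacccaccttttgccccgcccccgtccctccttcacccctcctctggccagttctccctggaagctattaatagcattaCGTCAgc
In *Jun* the element TTACCTCA began at -164 and TGACATCA at -45 relative to the TSS. The core TGACG began at -129 and -66 in *Fos*, at -106 in *Junb* and, as its reverse complement, at -7 in *Atf3*. It was also found in *Fosb*, at -60 (not shown, since 73 bases of its window lie in the RefSeq gene), so that 4 of the 7 windows held it, against 17.7% of 32817 mouse promoter windows of the same length. TGACATCA was found in 2.93% of these windows and TTACCTCA in 0.728%, and among the 7 only in *Jun*. The consensus AP-1 element TGANTCA was found in 0 of the 7 windows and in 6.75% of all, the full CRE TGACGTCA in 0 and in 1.55%, and the SRF-binding CArG box in 0 and in 1.47%. Sites farther upstream than the 250 bases, and the promoters of *Egr1*, *Ier2* and *Myc*, were not searched. These counts therefore do not show that the genes lack such sites. The EGR element GCGGGGGCG was found in *Fosb*, at -50, and *Fosl2*, at -79, and in 2.57% of all windows. Positions are relative to the RefSeq TSS, which can differ from the TSS of the deposited table. The *Jund* window held 0 bases of a *Jund* region, and the *Fosl2* window lay inside the gene as the deposited table gives it. The counts over the 7 windows include both. All motifs were searched on both strands, TGACG is part of TGACGTCA, and a match shows only that the letters are present.

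The promoters of these genes were highly accessible in both libraries. The level of a region was taken as the fold enrichment of its reads per base over the genome. In *Mettl3* flox/flox livers the promoter region with the most reads of each gene reached 33.6-fold (*Fosb*) to 134-fold (*Jun*), and in *Mettl3*-HKO livers 30.4-fold (*Myc*) to 110-fold (*Jun*). All 10 lay above the median of all promoter regions, which was 25.8-fold and 16.7-fold, and a peak was called for all 10 in both libraries. With the weaker promoter regions of these genes included, the lowest of the 14 levels was 31.6-fold and 19.9-fold. Of the 14, 12 had a peak in both libraries, against 83.3% of all promoter regions. In *Mettl3* flox/flox livers *Jun* was followed by *Jund* (82.6-fold), *Atf3* (79.1-fold), *Egr1* (77.9-fold), *Junb* (70.0-fold), *Fos* (53.0-fold), *Myc* (47.5-fold), *Fosl2* (42.6-fold), *Ier2* (40.2-fold) and *Fosb*. The intervals of *Jund*, *Atf3* and *Egr1* overlapped from one to the next in this order, as did those of *Fos*, *Myc*, *Fosl2*, *Ier2* and *Fosb*, although *Fos* was clear of *Fosb*. In *Mettl3*-HKO livers *Egr1* came second at 77.1-fold, then *Jund* at 68.7-fold and *Atf3* at 59.3-fold, while *Ier2* stood sixth at 50.3-fold and *Myc* last. There the intervals of *Atf3*, *Junb* and *Ier2* overlapped from one to the next, as did those of *Fos*, *Fosb*, *Fosl2* and *Myc*, while *Atf3* was clear of *Ier2* and *Fos* of *Fosl2* and *Myc*.

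**Figure D1:**
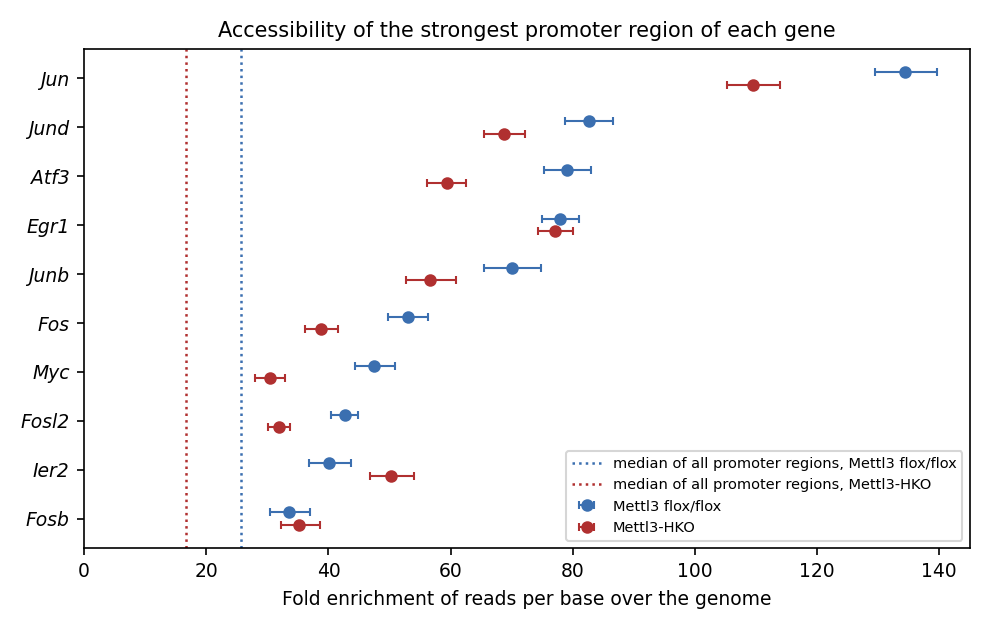
Fold enrichment of reads per base over the genome at the promoter region with the most reads of each gene, in the *Mettl3* flox/flox library (blue) and the *Mettl3*-HKO library (red). Bars are 95% Poisson intervals of 1 library and dotted lines the medians of all promoter regions; every gene lies to the right of the line of its own library, and *Ier2* and *Fosb* have the higher point in *Mettl3*-HKO livers.

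Between the genotypes these promoters kept more of their reads than promoters at large. On the reads-per-million (RPM) scale of the deposited table, the log2 ratio between the genotypes, with *Mettl3*-HKO in the numerator, had a median of -0.30 at the 10 strongest promoter regions and ran from -0.64 to 0.32, whereas the median over all 14387 promoter regions was -0.56. 9 of the 10 lay above that median, *Myc* being the exception. Strong promoters did not lie above it in general: in the tenth of promoter regions with the most signal, which held 5 of the 10, 37.1% did. 9 of the 10, again without *Myc*, also lay above the median of the tenth of promoter regions of like signal to which each belonged. The order of these ratios does not depend on how the libraries are scaled, but their sign does: 2 of the 10 were above 0 on the RPM scale, and 6 to 10 of them once the libraries were centred on all regions, on promoter regions or on the strongest promoters, or scaled to the reads in regions. The share of reads that fell in regions was 31.7% in the *Mettl3* flox/flox library (16764348 of 52826202) and 22.3% in the *Mettl3*-HKO library (12919369 of 58038305).

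**Figure D2:**
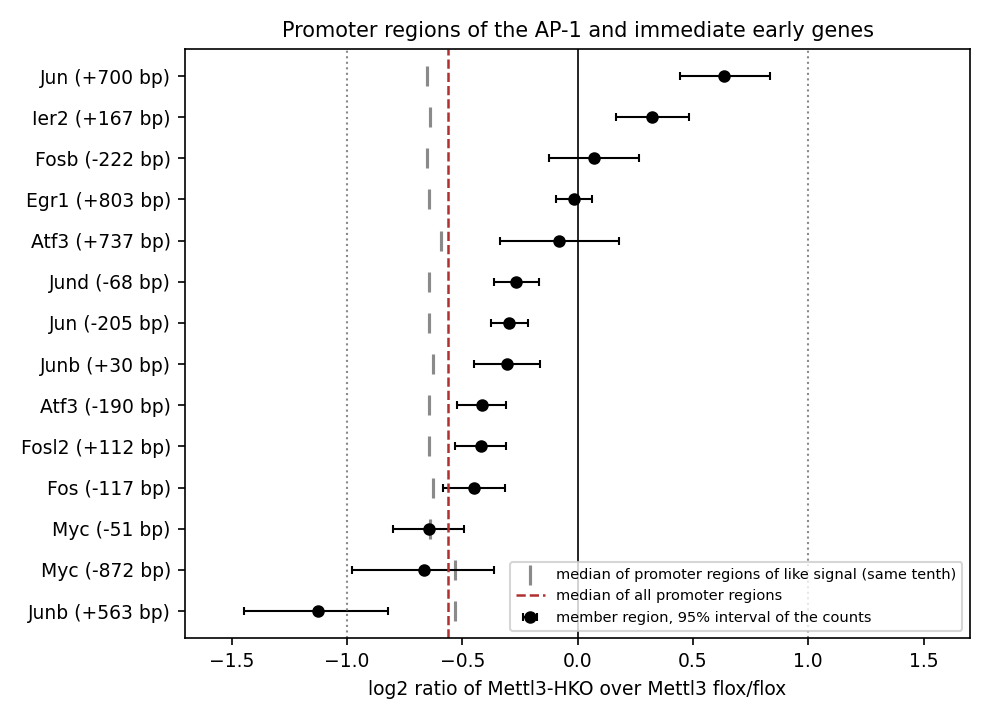
Log2 ratio (*Mettl3*-HKO to control library) on the RPM scale for the 14 promoter regions, named by gene and by the distance of their centre from the TSS, with 95% intervals of the counts. 11 of the 14 lie to the right of the dashed median of all promoter regions (-0.56), and dotted lines mark 2-fold; the position of the line at 0 depends on the scaling of the libraries.

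A threshold of 2-fold on the RPM scale was used to call a region. A region with a peak in 1 library alone entered the table through the library where it is high, so its ratio, at any gene below, is a description. Of the 14 promoter regions 1 was at least 2-fold lower in *Mettl3*-HKO livers, against 16.3% of all promoter regions, and 0 were at least 2-fold higher, against 4.07%. With promoter regions centred at 0, 0 of the 14 were lower, against 2.72%, and 1, the *Jun* region in the 5′ UTR, was higher, against 9%. By the strongest promoter region of each gene, 0 of 10 were past 2-fold in either direction, against 15.9% lower and 3.84% higher of 13163 genes. The log2 ratio was above 0 at 3 of the 14, against 16.1% of all promoter regions, and its interval excluded 0 at 11 of the 14, against 80.5%.

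*Jun* (ENSMUSG00000052684), the founding AP-1 subunit, had the most accessible promoter of the 10. Its main region, chr4:95051903-95052952 (GRCm38), with its centre 205 bp upstream of the TSS, held 2730 reads in *Mettl3* flox/flox and 2443 in *Mettl3*-HKO livers, a log2 ratio of -0.30 (95% interval -0.38 to -0.22). Within the gene the order was the other way. A region in the 5′ UTR centred 700 bp downstream of the TSS held 343 and 586 reads (chr4:95051325-95051720, log2 ratio 0.64, interval 0.44 to 0.83, 1.55-fold), and a peak was called there in the *Mettl3*-HKO library only. A region in the 3′ UTR, 1839 bp downstream, held 717 and 1104 reads (chr4:95050003-95050764, 0.49, interval 0.35 to 0.62). Set against the main promoter region of *Jun*, whose reads share the same library sizes, the ratio was higher by 0.93 in the 5′ UTR (interval 0.72 to 1.15) and by 0.78 in the 3′ UTR (0.62 to 0.94), differences that do not depend on the scaling. The region 1105 bp upstream, with 615 and 604 reads, differed from the main promoter region by 0.13 (-0.049 to 0.32). The 3′ UTR region had a peak in both libraries.

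*Junb* (ENSMUSG00000052837), a JUN protein that weakly activates and often restrains AP-1, had 4 regions. The main region (chr8:84978371-84979005, 30 bp downstream of the TSS) held 859 and 764 reads, a log2 ratio of -0.30 (-0.45 to -0.16). The 200 bp region centred 563 bp downstream, in the exon of the gene, fell from 261 to 131 reads (chr8:84978056-84978255), a log2 ratio of -1.12 (-1.44 to -0.82) and the 1 promoter region past 2-fold; its peak was called in the *Mettl3* flox/flox library only, which brought it into the table. Against the main *Junb* region it was lower by -0.82 on the log2 scale. Upstream, 1368 bp from the TSS, 1408 reads stood against 1004 (-0.62), and 2228 bp downstream 1007 against 905 (-0.29).

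*Jund* (ENSMUSG00000071076), the JUN family member that is expressed in resting cells, had 2 regions. Its promoter (chr8:70698332-70699431) held 1757 and 1606 reads, a log2 ratio of -0.27 (-0.36 to -0.17). The region 11257 bp upstream (chr8:70687425-70687959) held 122 reads in *Mettl3* flox/flox and 56 in *Mettl3*-HKO livers, a log2 ratio of -1.25 (-1.74 to -0.79), with a peak in the first library only. The 3 JUN genes thus had promoter ratios between -0.30 and -0.27, and the intervals of their pairwise differences spanned 0.

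Of the FOS genes, *Fos* (ENSMUSG00000021250), the rapidly induced partner of JUN, had the lowest promoter ratio. It was not separable from *Fosl2*, which lay 0.028 higher (interval -0.15 to 0.20). Its promoter (chr12:85473281-85474265), with the pair of TGACG cores shown above, held 1008 reads in *Mettl3* flox/flox and 812 in *Mettl3*-HKO livers, a log2 ratio of -0.45 (-0.58 to -0.31). The 2 upstream regions, 18477 bp (908 and 771 reads, -0.37) and 1636 bp (152 and 125 reads, -0.42) from the TSS, had similar ratios. Downstream the ratio was higher: 12185 bp from the TSS 585 reads stood against 783 (chr12:85485673-85486478, 0.28, interval 0.13 to 0.44), 0.73 above the promoter. Of the weak regions farther on, the one at 18294 bp held 26 and 24 reads and the one at 24198 bp held 18 and 38 (0.90), with a peak in *Mettl3*-HKO only.

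*Fosb* (ENSMUSG00000003545), which is strongly inducible and has a stable truncated isoform, was nearly level. Its promoter (chr7:19309957-19310590) held 411 and 474 reads, a log2 ratio of 0.070 (-0.12 to 0.26) and the 85.6th percentile of all promoter regions. Its other regions did the same, with 390 and 406 reads 9970 bp upstream (-0.078), 58 and 69 reads 6611 bp upstream (0.11) and 331 and 347 reads 1522 bp downstream (-0.068). None of the 4 *Fosb* intervals excluded 0 on the RPM scale.

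*Fosl2* (ENSMUSG00000029135), which encodes FRA-2, had one of the 2 longest promoter regions (chr5:32135016-32136811, 1796 bp), with 1480 and 1216 reads and a log2 ratio of -0.42 (-0.53 to -0.31). A region 2810 bp downstream of the TSS held 221 and 158 reads (-0.62), whereas the region in the 3′ UTR, 19561 bp downstream, held 201 and 270 (0.29, 0.71 above the promoter). As in *Jun*, the 3′ UTR region of *Fosl2* had the higher ratio of the 2 outside the promoter. In *Ier2* the 3′ UTR region had the lowest ratio of those outside the promoter (-0.72).

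*Atf3* (ENSMUSG00000026628), a stress-induced member of the ATF/CREB family that pairs with JUN proteins, had 2 promoter regions. The main one (chr1:191182999-191184063) held 1629 and 1342 reads, a log2 ratio of -0.42 (-0.52 to -0.31). The one in the first intron, 737 bp downstream, held 249 and 259 reads (-0.079), which was 0.34 above the main region.

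**Figure D3:**
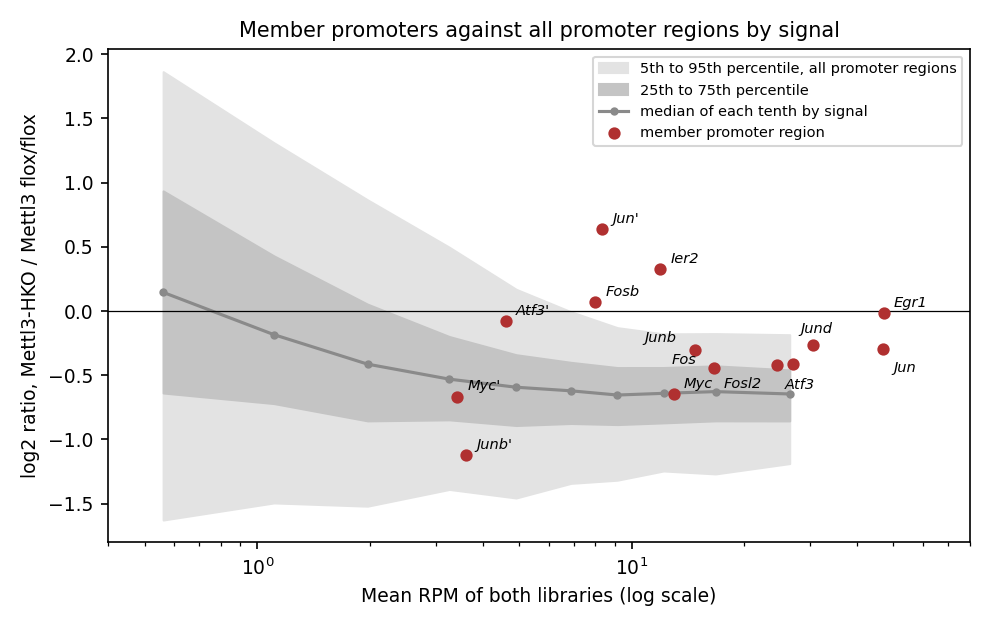
Mean RPM of both libraries (log axis) against the log2 ratio for the 14 promoter regions in red, a prime marking the weaker promoter region of a gene, over the percentiles of all promoter regions in 10 classes of signal. The median of the classes falls from 0.15 in the weakest to -0.65 in the strongest; *Myc* and the weaker regions of *Myc* and *Junb* lie on or below the line, and the other 11 above it.

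*Egr1* (ENSMUSG00000038418), a zinc finger factor and one of the fastest responding of these genes, and *Ier2* (ENSMUSG00000053560), a small nuclear protein induced by growth factors, were, with *Fosb*, the genes whose promoter intervals did not lie below 0 on the RPM scale. The *Egr1* promoter region (chr18:34859798-34861456) reaches from the TSS into the gene and held 2500 reads in *Mettl3* flox/flox and 2719 in *Mettl3*-HKO livers, a log2 ratio of -0.015 (-0.093 to 0.064). The *Ier2* promoter region (chr8:84662325-84663045) held 559 and 769 reads, a log2 ratio of 0.32 (0.17 to 0.48), and was the only one of the 10 strongest whose interval lay above 0 on the RPM scale. It was 0.97 (0.75 to 1.19) above the *Myc* promoter, the widest gap among the 10.

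The regions around *Egr1* held one call in each direction, the lower of them at a region admitted by its *Mettl3* flox/flox peak alone. A 233 bp region centred 2469 bp downstream of the TSS, annotated as the last intron, fell from 280 to 114 reads (chr18:34862177-34862409), a log2 ratio of -1.42 (-1.76 to -1.11) or 2.68-fold, with a peak in *Mettl3* flox/flox only. The next region, 5512 bp downstream and starting in the 3′ UTR, rose from 586 to 1420 reads (chr18:34864823-34865849), a log2 ratio of 1.14 (1.001 to 1.28) or 2.20-fold, with a peak in both libraries. Against the promoter of *Egr1* these were -1.42 and 1.16. Farther out, 27602 bp downstream, 329 reads stood against 189 (-0.93), and 9507 bp upstream 43 against 40. In the *Ier2* 3′ UTR, 1299 bp downstream, 883 reads stood against 588 (-0.72), which was -1.05 relative to its promoter. Just beyond, 2471 bp downstream, 143 reads stood against 219 (0.48), with a peak in *Mettl3*-HKO only. The 3 regions of *Ier2* beyond that held 58 to 198 reads and had log2 ratios between -0.40 and 0.32.

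*Myc* (ENSMUSG00000022346), the growth-promoting bHLH factor that is induced in the same wave, had the lowest ratio among the 10 strongest promoter regions and the 3 highest ratios among the 42 regions. Its main promoter region (chr15:61984887-61985793) held 833 and 585 reads, a log2 ratio of -0.64 (-0.80 to -0.49), and the second, 872 bp upstream, 220 and 152 (-0.67); the first was at the 41.9th percentile of all promoter regions. In the first intron, 1758 bp downstream, 223 reads stood against 274 (0.16). Downstream of the gene 3 regions were close to empty in *Mettl3* flox/flox livers and had peaks in *Mettl3*-HKO livers only. The region 5877 bp from the TSS (chr15:61991142-61991395) held 15 and 94 reads, a log2 ratio of 2.43 (1.72 to 3.41). The region at 6625 bp (chr15:61991916-61992117) held 11 and 90 reads, a log2 ratio of 2.79 (1.99 to 3.95). The region at 14320 bp (chr15:61999542-61999881) held 7 and 48 reads, a log2 ratio of 2.48 (1.49 to 4.03).

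The 3 downstream *Myc* regions were singled out for their ratios, and a peak in *Mettl3*-HKO livers alone brought them into the table, so their ratios are a description. Of the 13720 regions outside promoters with a peak in *Mettl3*-HKO only, 5.71% had a ratio at or above the lowest of the 3, which lay at the 98.6th percentile of all regions outside promoters. With 10 reads added to each count in place of 1 their log2 ratios ran from 1.63 to 2.12. These were large ratios on few reads, at regions that the table assigns to *Myc* by distance alone.

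**Figure D4:**
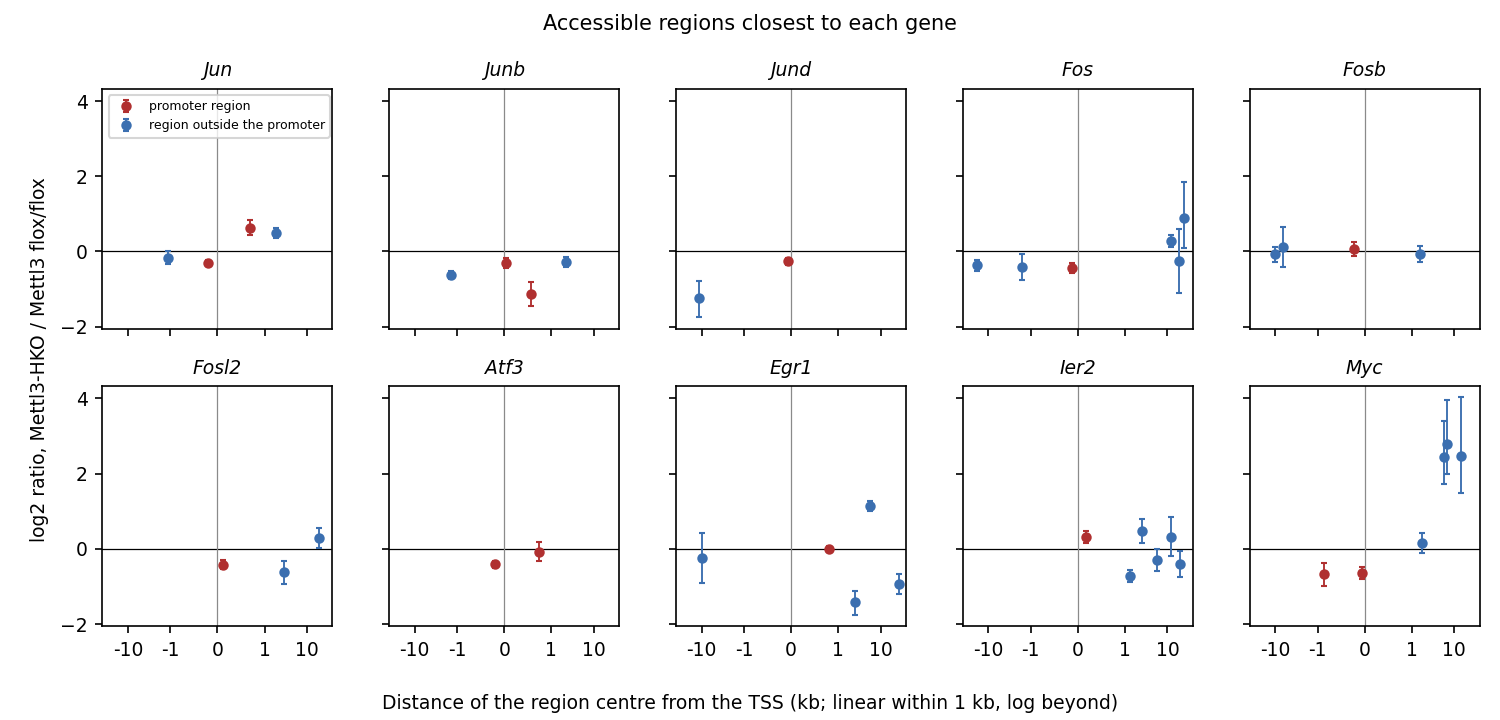
Log2 ratio (*Mettl3*-HKO to control library) on the RPM scale, with 95% intervals of the counts, against the distance of the region centre from the TSS for all 42 regions, a panel for each gene. Promoter regions are red and others blue; the 3 regions downstream of *Myc* stand highest, at 2.43 to 2.79, and *Egr1* has both a region below -1 and a region above 1.

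Over the 28 regions outside promoters the median log2 ratio was -0.12, against -0.27 for all such regions, and without the 3 *Myc* regions it was -0.24. 4 of the 28 were at least 2-fold higher (the 3 at *Myc* and the one at *Egr1*), against 15.6% of all regions outside promoters, and 2 were at least 2-fold lower (at *Jund* and *Egr1*), against 18.8%. With promoter regions centred at 0, 7 were higher, against 27.9%, and 0 lower, against 5.67%. A peak was called in both libraries at 19 of the 28, against 56.1% of all, and the interval excluded 0 at 19 of the 28, against 67%. The ratio of a region was also compared with that of the strongest promoter region of its own gene, a comparison in which the scaling cancels. Of 32 such comparisons, the region was higher than its promoter beyond counting error in 11, lower in 8 and not separable in 13, against 37% higher and 17.3% lower over all genes. The higher ones include the *Jun* 5′ UTR region, *Fos* at 24198 bp and the 3 *Myc* regions, with a peak in *Mettl3*-HKO only. The lower ones include *Junb* at 563 bp, *Jund* at 11257 bp and *Egr1* at 2469 bp, with a peak in *Mettl3* flox/flox only. For these the direction is a description. The difference was above 0 in 19, against 61% over all genes. The ratio was at least 2-fold higher in 5, against 22.8% over all genes, and at least 2-fold lower in 2, against 7.31%. Of these, only the *Egr1* region at 5512 bp (higher) and the *Ier2* region at 1299 bp (lower) had a peak in both libraries. The others entered the table through the library where they are high. The median difference was 0.037 over these genes and 0.23 over all genes.

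Among the 45 pairs of strongest promoter regions, the interval of the difference in log2 ratio lay clear of 0 in 31. Neighbours in the order seldom differed: of 9 neighbouring pairs, *Egr1* was above *Jund* by 0.25 (0.12 to 0.38) and *Ier2* above *Fosb* by 0.25 (0.0018 to 0.51), and the other 7 intervals spanned 0. *Myc* and *Fos* differed by 0.20 (-0.0082 to 0.40). The order runs from *Ier2*, *Fosb* and *Egr1* at its upper end, through the other 6 genes from *Jund* down to *Fos*, to *Myc* at its lower end. *Ier2* was also clear of *Egr1*, and *Jund* of *Atf3*, *Fosl2* and *Fos*, while *Myc* was not clear of *Fos*.

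The genes that drive, partner or restrain this program were read the same way, by the strongest promoter region of each gene. Of 83 genes in 6 lists 69 had a promoter region, with a median log2 ratio of -0.51; 1 was at least 2-fold higher, 7 were at least 2-fold lower and 43 lay above the median of all promoter regions. Over all genes 3.84% were higher and 15.9% lower by this measure. Many regions of the table carry no symbol, so a gene not found may lack only its name there. The other immediate early genes had a median near that of the 10 genes, -0.31 over 17 of 20, with 14 above the promoter median. In this list *Ier3*, a survival factor, was the highest (109 and 152 reads, 0.34). The orphan nuclear receptors *Nr4a1* (528 and 226 reads, -1.36) and *Nr4a3* (786 and 365 reads, -1.24) were past 2-fold lower. Genes of the MAP kinase phosphatases and Sprouty-related inhibitors that shut the signal off had a median of -0.44 over 11 of 13, from *Spred1* (-0.67) to *Dusp5* (302 and 477 reads, 0.52), with 0 past 2-fold.

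The other AP-1 and AP-1-binding bZIP genes had a median of -0.63 over 5 of 10, with 1 above the promoter median. *Atf2*, a partner of JUN, was the lowest (1929 and 1051 reads, -1.01), and *Mafk*, a small MAF protein, the highest (104 and 209 reads, 0.86). The JNK, ERK and p38 kinase genes had a median of -0.66 over 15 of 17, from *Map2k6* (91 and 48 reads, -1.04) to *Map2k2* (-0.33). Among the SRF, TCF and CREB genes, 12 of 12 were found with a median of -0.52. There *Creb1*, which binds the CRE, fell from 3085 to 1663 reads (-1.03), the SRF coactivator *Mkl2* stood at -1.21, and *Elk3*, a ternary complex factor, went from 25 to 58 reads (1.05). The MYC partners and antagonists had a median of -0.64 over 9 of 11, from *Mlx* (286 and 121 reads, -1.37) to *Mycl* (-0.23).

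**Figure D5:**
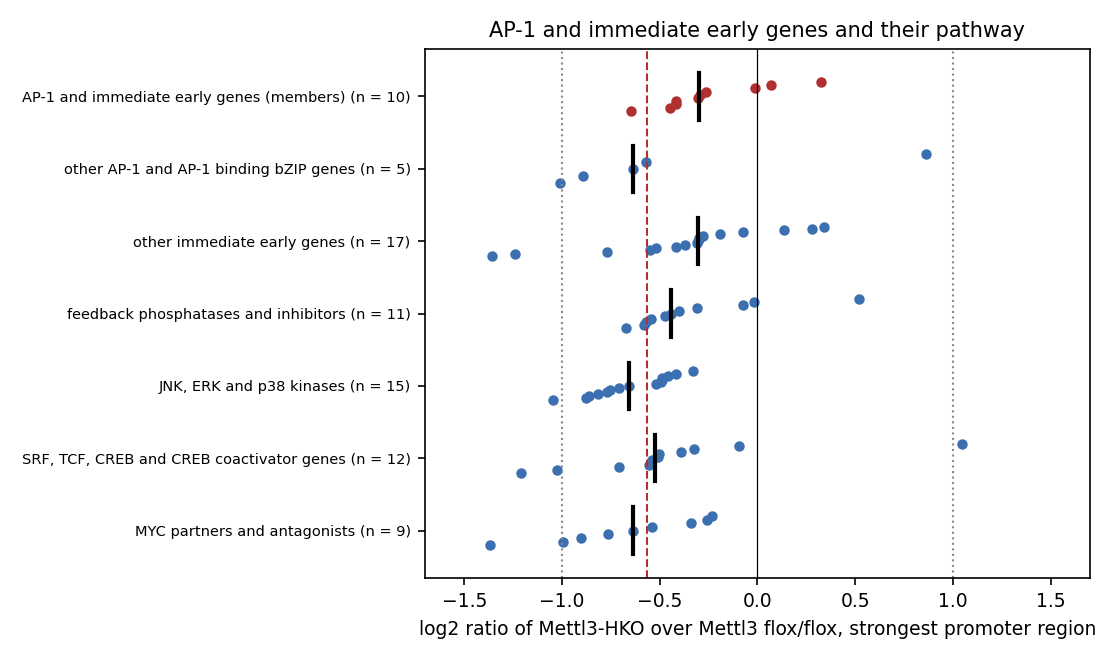
The log2 ratio on the RPM scale at the strongest promoter region of each gene (points), by list, with the list median as a black bar, the median of all promoter regions as a dashed line and 2-fold as dotted lines. The 10 genes (red) and the other immediate early genes have medians of -0.30 and -0.31, and the other lists lie between -0.66 and -0.44; signs depend on the scaling of the libraries.

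Markers of the cell types of the liver moved between the libraries. The 8 hepatocyte genes, *Pck1* (2349 and 1096 reads), *Apoa1* (667 and 505), *Cps1* (538 and 478) and *Alb* (480 and 533, 0.015) among them, had a median log2 ratio of -0.85, against -0.57 over all genes by the strongest promoter region. Of the 8, 3 lay above the median of all promoter regions and 3 were past 2-fold lower, against 15.9% of all genes. Their summed promoter reads were 5556 and 3463. The sinusoidal endothelial genes had a median of 1.60 over 7 of 8, with 5 past 2-fold higher, against 3.84% of all genes, and summed reads of 153 and 400. These promoters held 11 to 89 reads and belonged to the 2 weakest of 10 signal classes of promoter regions, whose medians were 0.15 and -0.18, with a 95th percentile of 1.86 and 1.31. For Kupffer cells and macrophages 2 of 8 genes had a promoter region, with a median of 1.29 and 53 and 112 reads, and for cholangiocytes 5 of 8 (-0.19, 831 and 698 reads), and none of the 8 lymphocyte genes had one. For stellate cells 3 of 8 had one, with a median of 0.076, and they did not move together: *Reln* held 690 and 132 reads (-2.51), *Hgf* 71 and 138 (0.81) and *Col1a1* 37 and 43 (0.076). The part of these shifts in the values of the AP-1 and immediate early genes was not tested. The promoter of *Mettl3* itself held 566 and 392 reads (-0.66), which does not check the deletion, since accessibility at the promoter does not read the floxed exons.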

How the data were processed

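ATAC-seq libraries were made by the authors from nuclei of pooled livers, 1 library for each genotype, and sequenced as paired-end reads. According to their methods, reads were trimmed with skewer, aligned with BWA (GRCm38 per the labels) and filtered to proper, non-mitochondrial pairs, and peaks were called with MACS2 with duplicates kept; how regions were merged and reads counted is not given in the sources used here. Whether the deposited counts include duplicates is not stated; if they do, the counting intervals are too narrow.

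The deposited table gives read counts, RPM and the fold enrichment ratio of each region in each library. It also holds log2 fold changes by the authors, which were not used. Of 74821 rows, 5272 repeated a region and were dropped. Library totals were recovered from the deposited counts and RPM; log2 ratios are of (count + 1) scaled by these totals, and 95% intervals are Clopper-Pearson. Starts were converted to 1-based. Differences between regions are conditional odds ratios with exact intervals. Intervals cover counting error only.

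Members and lists were chosen with earlier results of these data known. All 10 genes are named; of the pathway lists, the highest and lowest gene and those past 2-fold; of marker lists, up to 4 genes with the most reads. RefSeq promoters were searched with Python 3.11.15, numpy 2.4.6, pandas 2.3.3 and scipy 1.17.1; figures used matplotlib 3.10.9. Other scalings, added reads, filters and promoter windows were tried as alternatives, and the scripts were tested on simulated data.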

Additional observations from a re-analysis of the deposited data

How the results depend on the processing

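The median log2 ratio of the 14 promoter regions, -0.30 on the RPM scale, became 0.077 with the median of all regions set to 0, 0.26 on all promoter regions, 0.35 on the strongest 10% of promoter regions and 0.21 when scaled to the reads in regions. Under each of these 4 scalings 0 promoter regions were 2-fold lower and 1, the *Jun* 5′ UTR region, was 2-fold higher, against 1.99% to 5% lower and 6.9% to 9.86% higher of all promoter regions. The 1 lower promoter region was also lost, leaving 0, among regions with a peak in both libraries (14.8% of all) and with a promoter window of 500 bp (15.9%). For regions outside promoters the median, -0.12 on the RPM scale, became 0.26 with the median of all regions set to 0, and 0.44, 0.53 and 0.39 after centring on promoters, on the strongest 10% and when scaled to the reads in regions. The number 2-fold lower became 1 after centring on all regions (8.65% of all) and 0 under the other 3 scalings (4.69% to 6.42%) and among regions with a peak in both libraries (15.7%). The number 2-fold higher became 7 after centring on promoters (27.9%) and on the strongest 10% (30.2%), and 1 among regions with a peak in both libraries (3.76%), where the 3 regions downstream of *Myc* drop out. Adding 0.5 or 10 reads, a minimum of 20 reads and a promoter window of 2 kb kept each of these results within its margin. No replicate could be left out. No paired analysis was possible because each group has 1 library.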

Other observations

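Some regions that overlap these genes are closest to another TSS and were not counted with them. The region that runs over the 3′ end of *Jun* (chr4:95048024-95049453, closest to ENSMUSG00000052767) rose from 721 to 2031 reads, a log2 ratio of 1.36 (1.24 to 1.48) on the RPM scale, with a peak in *Mettl3*-HKO only. Of the 2 regions over *Jund* that are closest to ENSMUSG00000080058, one held 156 and 190 reads (0.15) and the other 375 and 290 (-0.51). The region in the *Atf3* 3′ UTR, closest to *Fam71a*, held 363 and 456 reads (0.19, interval -0.0088 to 0.40). Beyond the 3 regions downstream of *Myc*, the next region on the same side (chr15:62017127-62018028, closest to ENSMUSG00000098998) held 208 and 448 reads (0.97, interval 0.73 to 1.22), with a peak in both libraries, and the one on the other side of the *Myc* promoter (closest to ENSMUSG00000103610) held 293 and 222 (-0.53). Of the 20 regions next to those of the 10 genes on either side, 10 had a log2 ratio above 0 and 10 below, from -0.86 beside *Junb* to 2.38 beside *Fosl2*; 6 were past 2-fold higher and 0 past 2-fold lower, against 15.6% and 18.8% of all regions outside promoters and 4.07% and 16.3% of promoter regions. High ratios on few reads, with a peak in *Mettl3*-HKO only, were found at 13 and 79 reads beyond *Fosl2* (2.38), 9 and 49 beyond *Atf3* (2.19), 7 and 38 beyond *Egr1* (2.15) and 43 and 120 beyond *Fosb* (1.32).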
